A study of Mus musculus with 2 samples.

Results

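Open chromatin was described here at 9 genes of axon guidance, Robo1, Robo2, Robo3, Slit1, Slit2, Slit3, Dcc, Ntn1 and Unc5c, out of 21938 protein-coding genes. The members were chosen by name, and each was taken as its gene body in the GENCODE annotation of mm10 plus 50 kb on either side. The 9 windows spanned 4.89 Mb, which is 0.179% of the nuclear genome, and held 395 of 165037 peaks in replicate 1 and 525 of 219142 peaks in replicate 2. The tissue was healthy retina of mouse embryos at embryonic day 14.5, strain B6NCrl, pooled from males and females, from the ENCODE laboratory of John Stamatoyannopoulos at UW. It gave 1 group with 2 biological replicates, and no treatment, other genotype or second tissue. By the labels the replicates are different biosamples under 1 donor identifier. Replicate 1 was sequenced on a HiSeq 2000, a HiSeq 2500 and a NextSeq 500 and replicate 2 on the last 2 of these, so instrument and replicate cannot be told apart. DNase-seq maps DNA that nucleosomes leave accessible to the nuclease DNase I, as at active promoters and enhancers. In whole tissue, a site open in fewer cells and a site less open in each cell cannot be told apart.

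Slit proteins are secreted ligands that repel growing axons by binding Robo receptors. Robo3 is the divergent member of that family, and in mammals it binds Slits weakly and takes part in netrin responses. Netrin-1, made by Ntn1, is a secreted ligand that attracts axons through the receptor Dcc and repels them through Unc5 receptors such as Unc5c. In the embryo, some of these proteins guide ganglion cell axons over the inner retinal surface, out through the optic disc or across the optic chiasm.

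The depth of the libraries is unknown, since the peak files give no read numbers. Replicate 2 held 1.33 times as many nuclear peaks as replicate 1, and densities are therefore given per library beside the genome average of that library. Promoter peaks were present in both libraries at 6 of 6 retinal progenitor markers, 5 of 5 ganglion cell markers and 3 of 3 optic stalk markers. They were present in both at 0 of 4 blood and microglia markers, 0 of 3 lens markers, 1 of 4 pigment epithelium markers, 1 of 4 endothelium markers and 3 of 4 periocular mesenchyme markers, namely genes of the tissue around the eye. Over all protein-coding genes the share was 68.8%. Peak density over the windows gave another picture. It was above the genome average in both libraries at every marker of the first 3 groups. It was also above at 1 of 4, 3 of 3, 1 of 4, 4 of 4 and 3 of 4 markers of the other groups, in the same order, against 63.2% of all genes. The part of surrounding tissue in the values below was not tested.

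Each peak was 150 bp wide and carried a score from 1 to 150 whose meaning is not stated. Scores were turned into percentile ranks within a library, where 100 is the strongest peak. The sequences of the strongest shared peaks at start sites are shown first, because every member had a peak there. Of the 8 members other than Dcc, the 4 whose stretch held a motif word are shown, and those of Slit1, Slit3, Robo3 and Unc5c, which held none of the 10 words searched, are not. They come from the plus strand of GRCm38, the assembly equivalent to mm10, and bases that belong to an annotated UTR were left off. This left 93 bp at Robo1, 102 bp at Slit2 and 60 bp at Slit1, so the lack of a word at Slit1 covers only part of its peak. The shares among all promoter peaks given below are over whole peaks of 150 bp. Capitals mark matches on either strand to the motif words GGGCGG (GC box), CAGCTG (E-box), CAGCAGG (Zic), TAATTA (homeodomain) and TGANTCA (AP-1).
Robo1 inner start, chr16:72663056-72663148: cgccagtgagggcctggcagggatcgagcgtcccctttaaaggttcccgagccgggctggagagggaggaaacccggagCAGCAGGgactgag
Slit2 start, chr5:47983036-47983137: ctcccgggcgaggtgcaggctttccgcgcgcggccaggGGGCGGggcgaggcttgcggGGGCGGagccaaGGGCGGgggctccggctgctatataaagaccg
Robo2 start, chr16:74411676-74411825: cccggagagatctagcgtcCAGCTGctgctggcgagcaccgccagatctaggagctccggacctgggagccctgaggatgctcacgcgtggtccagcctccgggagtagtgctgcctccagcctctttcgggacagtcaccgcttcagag
Ntn1 upstream start, chr11:68399776-68399925: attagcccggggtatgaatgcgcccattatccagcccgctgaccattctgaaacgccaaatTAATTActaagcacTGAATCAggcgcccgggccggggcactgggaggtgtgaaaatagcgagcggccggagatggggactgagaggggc
The Slit2 stretch held 3 GC boxes, and the Ntn1 stretch held a homeodomain word and an AP-1 word. The Ntn1 stretch is centred 972 bp downstream of the start, in intron 2. Among all promoter peaks, the GC box was present in 30.3% in replicate 1 and 27.8% in replicate 2, the E-box in 10.8% and 11.4%, the Zic word in 6.85% and 6.95%, the homeodomain word in 1.84% and 2.46% and the AP-1 word in 2.68% and 3.02%.

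The second set shows the strongest peaks shared by both libraries that lay more than 1 kb from any annotated start, called distal peaks, at 6 of the members, because at Slit1, Slit3 and Robo3 such a peak ranked above the promoter. Capitals also mark ACAAAG (Sox), on either strand.
Slit1 intron 4, chr19:41716336-41716485: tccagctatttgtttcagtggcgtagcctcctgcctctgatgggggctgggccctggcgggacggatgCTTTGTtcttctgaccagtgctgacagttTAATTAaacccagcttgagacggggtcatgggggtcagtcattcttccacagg
Robo3 exon 17, chr9:37420816-37420965: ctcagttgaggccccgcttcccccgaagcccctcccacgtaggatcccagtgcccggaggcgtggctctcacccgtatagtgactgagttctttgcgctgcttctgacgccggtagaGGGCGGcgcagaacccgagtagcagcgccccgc
Unc5c intron 12, chr3:141814996-141815145: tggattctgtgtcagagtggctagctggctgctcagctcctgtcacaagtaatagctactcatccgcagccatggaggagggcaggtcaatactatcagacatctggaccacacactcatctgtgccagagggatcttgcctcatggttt
Ntn1 upstream, chr11:68408276-68408425: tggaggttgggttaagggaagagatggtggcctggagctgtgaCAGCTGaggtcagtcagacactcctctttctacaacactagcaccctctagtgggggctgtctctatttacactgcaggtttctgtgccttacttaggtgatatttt
Robo1 intron 2, chr16:72834356-72834505: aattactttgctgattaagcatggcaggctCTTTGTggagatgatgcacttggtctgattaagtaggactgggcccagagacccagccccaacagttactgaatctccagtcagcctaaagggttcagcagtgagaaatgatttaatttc
Slit3 intron 4, chr11:35452556-35452705: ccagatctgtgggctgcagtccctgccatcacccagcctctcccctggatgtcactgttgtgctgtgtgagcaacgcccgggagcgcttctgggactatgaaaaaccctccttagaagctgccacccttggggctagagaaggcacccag
The homeodomain word and a Sox word stood in the Slit1 sequence, a GC box in that of Robo3, an E-box upstream of Ntn1 and a Sox word in Robo1. The sequences from Unc5c and Slit3 held none of the words searched, and neither did the strongest distal peaks of Robo2 and Slit2, which are not shown. A match is a match of letters and not a bound site.

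All 9 members had a promoter peak, within 1 kb of an annotated start, in both libraries. Over all protein-coding genes the share with one was 69.7% in replicate 1, 71.3% in replicate 2 and 68.8% in both. The promoter peaks of the members were of middling strength. Among genes with a promoter peak, the median rank of the strongest one was 95 in replicate 1 and 95.9 in replicate 2. For the 9 members it was 92.6 and 94.7, and 8 of 9 lay below the genome's median in each library, with Slit2 as the exception in both. The plot of promoter and distal ranks shows this order.

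**Figure D1:**
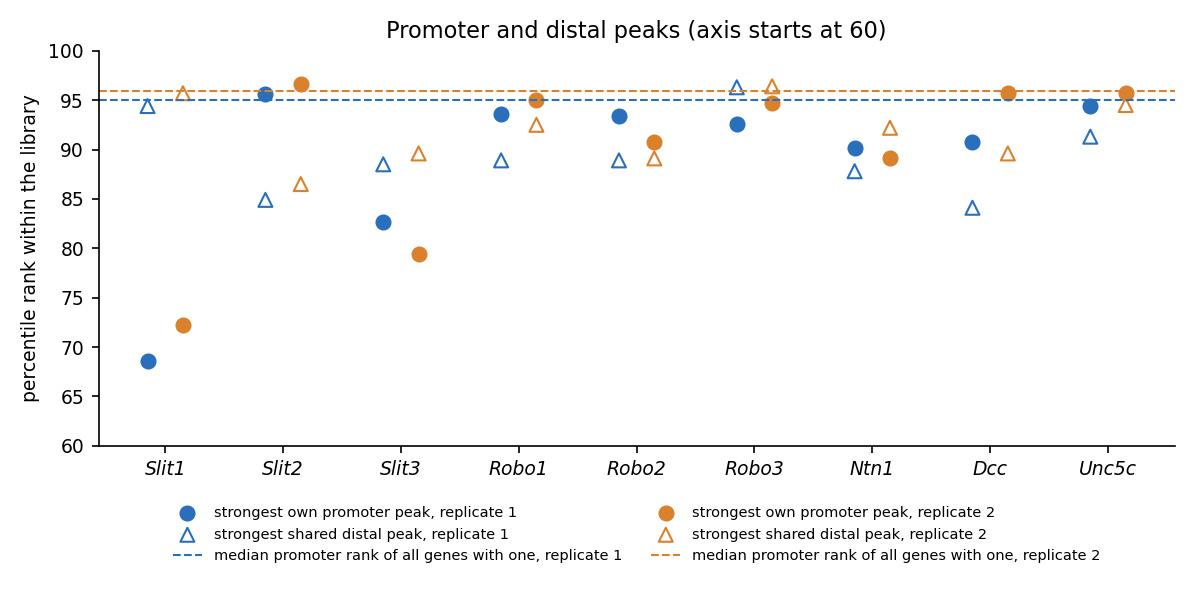
Percentile rank within the library (vertical axis, from 60 to 100) of the strongest own promoter peak (filled circles) and the strongest shared distal peak (open triangles) of each member, with replicate 1 in blue and replicate 2 in orange; dashed lines give the median promoter rank over all genes with a promoter peak, 95 and 95.9. The Slit1 promoter is the lowest circle in both libraries, at 68.6 and 72.2, and at Slit1, Slit3 and Robo3 the distal peak is above the promoter in both. The Slit3 circles are those of an inner start of a noncoding transcript, and its outermost start, at 66.9 and 72.2, is not drawn.

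Among the ligands, Slit1 had the lowest rank when the strongest peak at any start was taken, and dense distal chromatin. At Slit3 that peak lay at an inner start of a noncoding transcript. The outermost Slit3 start, its only one with a protein-coding transcript, ranked 66.9 and 72.2, no higher than Slit1. The Slit1 promoter peak, at chr19:41743576-41743725 over the first exon, ranked 68.6 in replicate 1 and 72.2 in replicate 2. Only 10% and 11.5% of genes with a promoter peak had a strongest one of that rank or lower. A peak in intron 4 of Slit1, 27.3 kb downstream of the 5′ end at chr19:41716336-41716485, scored 104 and 124 and ranked 94.4 and 95.7. A second intron 4 peak lay 87.5 kb downstream and ranked 92.6 and 91.1, and intergenic peaks 20.4 kb and 2.69 kb upstream ranked 91.1 and 93.4, and 90.2 and 94.0. These 4 peaks were the ones of Slit1 in the top 10% of scores in both libraries, and all were distal. The Slit1 window held 33 peaks in replicate 1 and 44 in replicate 2, or 13.6 and 18.1 per 100 kb, which was 2.24 and 2.25 times the genome average.

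Slit2 was arranged the other way, with an open start and a thinner gene body. Its promoter peak at chr5:47983036-47983185 scored 110 and 128 and ranked 95.6 and 96.6, the strongest promoter rank of the 9 members in both libraries. Hotspots, broader regions of DNase cutting, were listed apart from the peaks. In replicate 1 the widest of the window, at chr5:47983877-47985614, was 1738 bp wide. It covered part of the cluster of starts and did not reach the promoter peak. In replicate 2 the widest, at chr5:47982635-47986909, was 4275 bp wide and covered the whole cluster. The strongest distal peak lay in intron 1, only 3.05 kb from the 5′ end, and ranked 84.9 and 86.5. It was 1197 bp from the nearest annotated Slit2 start, and in replicate 2 it lay inside the widest hotspot. Of the peaks in the gene body, 43.8% in replicate 1 and 43.9% in replicate 2 lay in the first 20% of its length. The window held 38 and 48 peaks, or 8.95 and 11.3 per 100 kb. The microRNA gene Mir218-1 lies inside Slit2, and no peak of either library lay within 5 kb of it.

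Slit3 differed from the other members in how the libraries compared. It was the only member with fewer peaks in replicate 2, with 86 in replicate 1 and 79 in replicate 2, or 12.5 and 11.5 per 100 kb. Relative to the genome average the window stood at 2.07 times in replicate 1 and 1.43 times in replicate 2. Only 58.1% of its replicate 1 peaks were overlapped in replicate 2, the lowest share of the 9, although 62.0% of its replicate 2 peaks were overlapped in replicate 1. The first 20% of the length of the gene held 17 peaks in replicate 1 and 8 in replicate 2, whereas the last 20% held 18 and 27. Peaks whose score was written in decimal form made up 14 of the 86 and 7 of the 79, against 12.1% and 7.80% of all peaks.

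The outermost Slit3 start had peaks at ranks 66.9 and 72.2. A start of a noncoding transcript, 423 kb into the gene, had a stronger one at chr11:35544476-35544625, at 82.7 and 79.4. The strongest distal peak lay in intron 4 at chr11:35452556-35452705 and ranked 88.5 and 89.6, with a neighbour just upstream at 88.5 and 87.8. Slit3 also hosts a microRNA gene, Mir218-2, with 1 peak within 5 kb in replicate 1 at a rank of 38.0 and 0 in replicate 2.

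Ntn1 had 2 open starts. The strongest peak of the upstream start, at chr11:68399776-68399925 with ranks of 90.2 and 89.1, was centred 972 bp downstream of it, in intron 2. A peak 292 bp from that start, at chr11:68400456-68400605, ranked 73.8 and 81.6. The second start, 13.8 kb downstream of the first, had peaks at 88.2 and 86.9. The strongest peak of the window, at 91.8 and 96.8, was the promoter of the neighbouring gene Pik3r5, 31.3 kb upstream of Ntn1. The strongest distal peak lay 7.53 kb upstream of Ntn1 at chr11:68408276-68408425 and ranked 87.8 and 92.2. The window held 38 and 50 peaks, or 13.0 and 17.2 per 100 kb, 2.15 and 2.13 times the genome average.

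Among the receptors, Robo1 was open at an inner start and not at its outer ones. Neither library had a peak within 1 kb of the GENCODE starts at chr16:72308306 and chr16:72563700, each of which begins 1 protein-coding transcript. The third start cluster, at chr16:72663149-72663204 and 355 kb from the 5′ end, had the strongest peak of the window, with scores of 100 and 121 and ranks of 93.6 and 95. RefSeq places its Robo1 start at the same base, chr16:72663149. The strongest distal peak of Robo1 lay in intron 2, 526 kb from the 5′ end at chr16:72834356-72834505, and ranked 88.9 and 92.5. Peaks were fewest in the first 20% of the gene, which held 3 of 56 peaks of the body in replicate 1 and 5 of 77 in replicate 2. The middle 20%, which contains the open start, held 23 and 26.

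Robo2 was open at its GENCODE 5′ end, with ranks of 93.4 and 90.8 at chr16:74411676-74411825. Its strongest distal peak lay 1.29 kb upstream and ranked 88.9 and 89.1. In replicate 2 the highest peak of the window was instead an intronic one 250 kb downstream, at chr16:74162176-74162325 with a rank of 93.1, which ranked 82.2 in replicate 1. Robo2 held 48 peaks in replicate 1 and 77 in replicate 2, or 7.74 and 12.4 per 100 kb. Of the replicate 1 peaks 89.6% were overlapped in replicate 2, and of the replicate 2 peaks 54.5% were overlapped in replicate 1. In replicate 2, 35 of the 77 peaks had no partner.

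Robo3, the short gene of the set at 17.6 kb, had its strongest peak inside the coding region. That peak, at chr9:37420816-37420965, overlapped coding exon 17 of 28 and lay 12.4 kb downstream of the 5′ end. It scored 114 and 127 and ranked 96.3 and 96.4, above the strongest promoter peak at chr9:37430696-37430845, which ranked 92.6 and 94.7. An intergenic peak 23.5 kb upstream ranked 91.6 and 94.0. The 17 and 18 peaks of the window gave 14.5 and 15.3 per 100 kb. Only 5 of them lay in the gene body in each library, since the flanks make up most of this window and also hold the genes Hepacam and Robo4.

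Dcc was the exception of the set, with an open promoter and sparse chromatin elsewhere. Its promoter peak at chr18:72351116-72351265, just upstream of the start, ranked 90.8 in replicate 1 and 95.7 in replicate 2. The gene spans 1100 kb, and its window held 33 peaks in replicate 1 and 64 in replicate 2. The density of 2.76 and 5.34 per 100 kb was 0.455 and 0.665 times the genome average, at the 10.5th and 15th percentile of genes over 100 kb. The longest stretch without a peak in either library was 93.2 kb, between 486 kb and 579 kb from the 5′ end. In replicate 1, 48.4% of the peaks in the gene body lay in the first 20% of its length, against 25.0% in replicate 2. The strongest distal peak lay in intron 7, 749 kb downstream of the start, and ranked 84.1 and 89.6. Dcc also had the largest ratio of replicate 2 to replicate 1 among the members, at 1.94, and the lowest share of replicate 2 peaks overlapped in replicate 1, at 42.2%.

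Unc5c was open both at its start and at its 3′ end. The promoter peak at chr3:141464816-141464965 ranked 94.4 in replicate 1 and 93.7 in replicate 2, where the strongest peak at the start lay at chr3:141465456-141465605 and ranked 95.7. The strongest distal peak was in intron 12, 350 kb downstream at chr3:141814996-141815145, and ranked 91.3 and 94.5. A peak in the UTR of the last exon, exon 16, at chr3:141831276-141831425, ranked 88.5 and 90. The window held 44 and 66 peaks, or 9.37 and 14.1 per 100 kb. Of its replicate 1 peaks 90.9% were overlapped in replicate 2, the highest share of the 9, and of its replicate 2 peaks 53.0%.

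**Figure D2:**
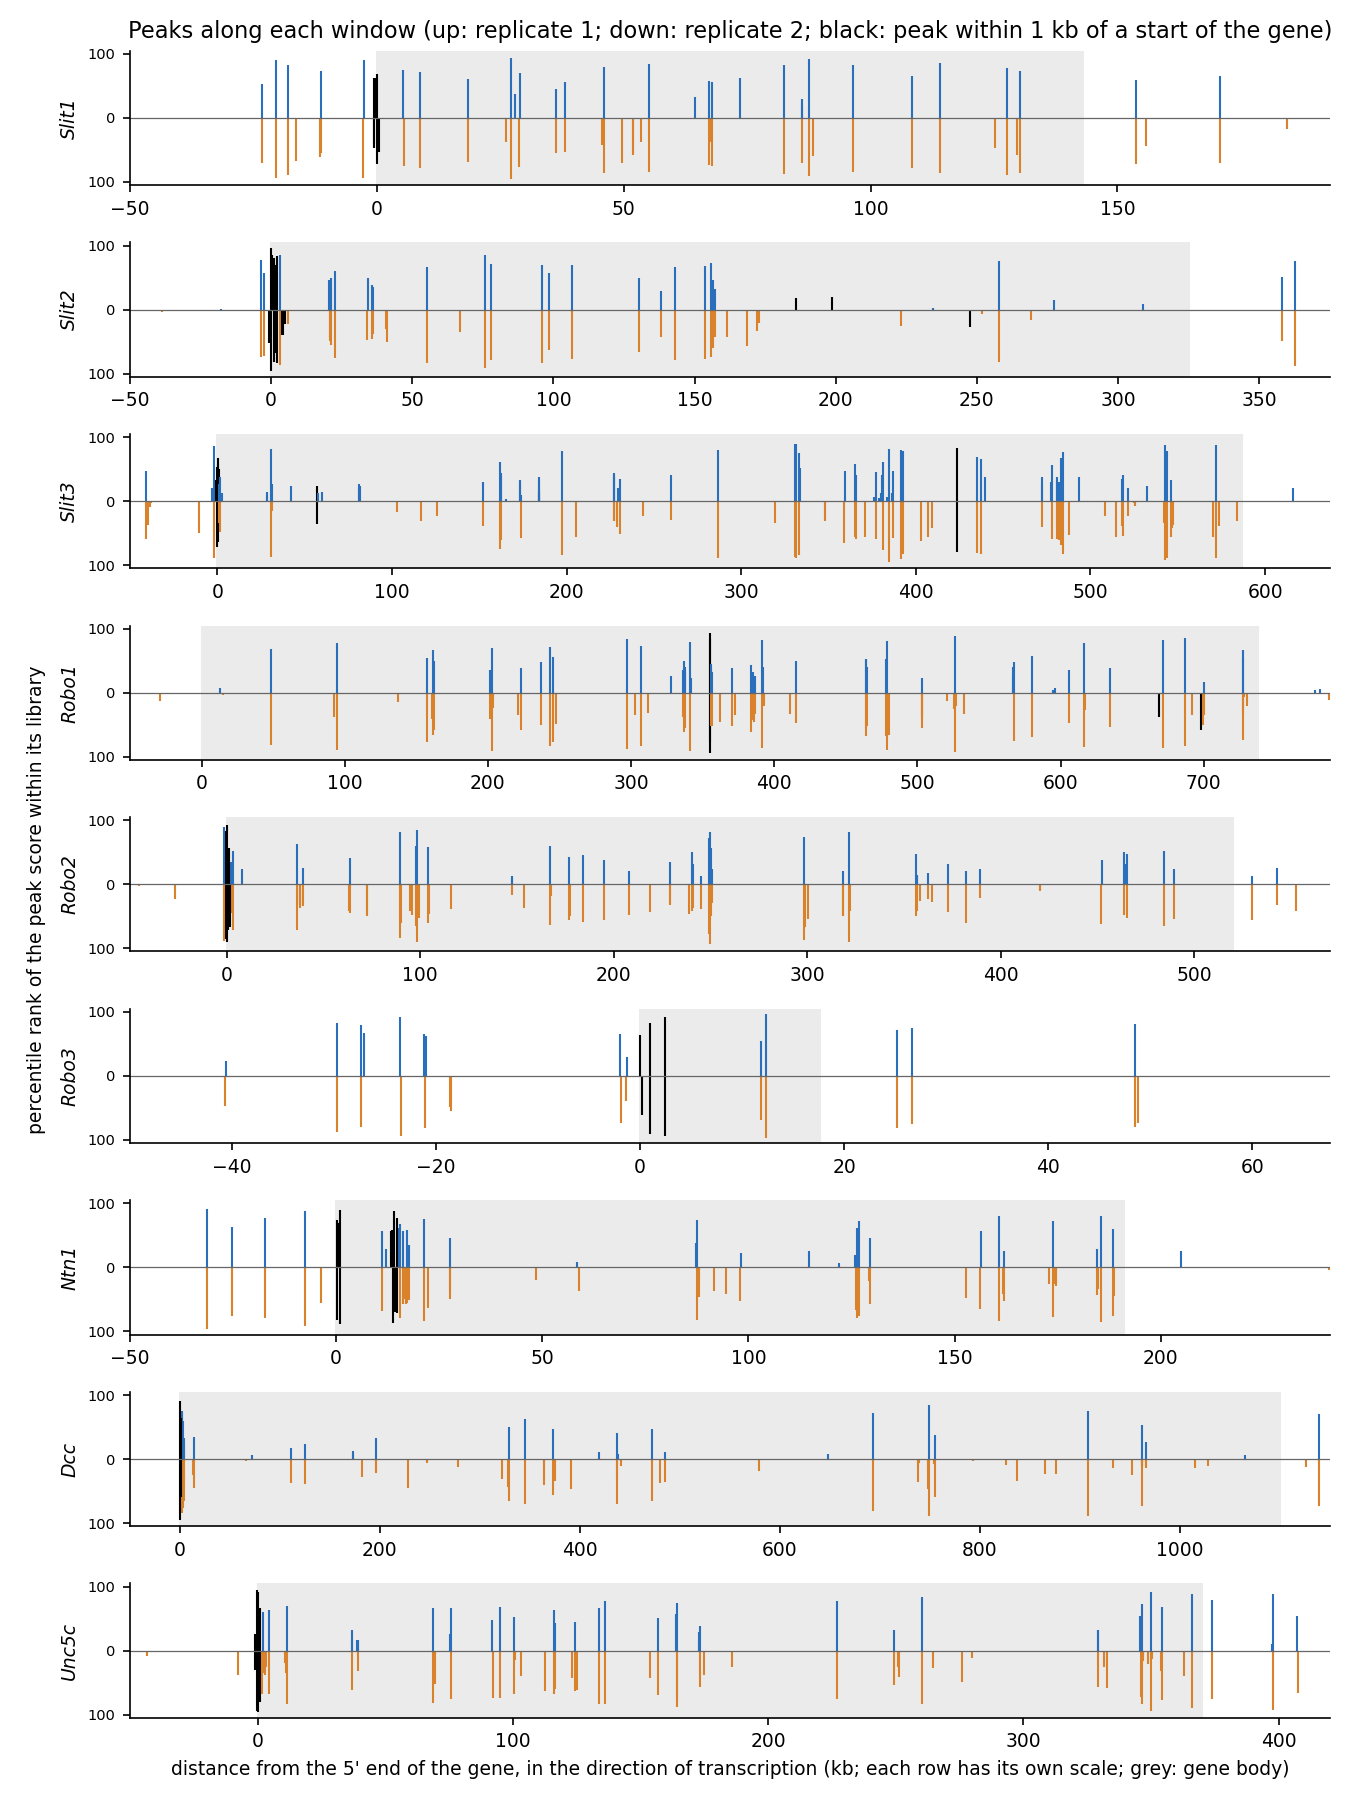
Peaks of the 9 windows against the distance from the 5′ end of the gene in kb, with replicate 1 drawn upward and replicate 2 downward; the height of a line is the percentile rank of the peak within its library, black lines lie within 1 kb of a start of the gene, and grey marks the gene body. Robo1 has its tall black line 355 kb into the gene, Slit2 and Dcc have theirs at the 5′ end, and the Dcc row is the sparsest.

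Across the set, 8 of 9 windows held more peaks per 100 kb than the genome average in both libraries, with Dcc below it in both. The same held for 63.2% of all protein-coding genes, and for 55.4% of those over 100 kb, against 7 of the 8 members of that length. Of the 8, Robo1 and Robo2 were above the average in both libraries only while weaker peaks were counted. With peaks above the median score of each library, Robo1 stood at 1.04 ± 0.115 times and Robo2 at 1.11 ± 0.277 times (SD, n = 2), and neither was above 1 in both libraries. When an equal number of the strongest peaks was taken from each library, the Robo1 window fell to 0.958 times the average and the Robo2 window to 0.944 times. Over all peaks they stood at 1.16 ± 0.0208 and 1.41 ± 0.188 times (SD, n = 2). With the same equal number, Slit1 stood at 3.71 times and Robo3 at 3.98 times.

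Each density was divided by the genome average of its library before the members were put in order, because replicate 2 had more peaks everywhere. Slit1 stood at 2.24 ± 0.00655 times the average (SD, n = 2), Robo3 at 2.15 ± 0.342 and Ntn1 at 2.14 ± 0.0138. Next came Slit3 at 1.75 ± 0.450, Unc5c at 1.65 ± 0.142, Slit2 at 1.44 ± 0.0509 and Robo2 at 1.41 ± 0.188, then Robo1 at 1.16 ± 0.0208 and Dcc at 0.560 ± 0.148. Neighbours in this order whose values did not overlap were Ntn1 and Slit3, Unc5c and Slit2, Robo2 and Robo1, and Robo1 and Dcc. Robo3 varied widely, from 2.39 in replicate 1 to 1.90 in replicate 2, and its place depended on the flanks. Over gene bodies alone Robo3 came first at 4.12 times, against 2.85 for Ntn1 and 2.73 for Slit1. Undivided, the mean densities ran from 15.8 ± 3.20 peaks per 100 kb at Slit1 to 4.05 ± 1.83 at Dcc, with Ntn1 before Robo3 and Robo2 level with Slit2 at 10.1. With 2 libraries in 1 group no test of these differences was made.

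**Figure D3:**
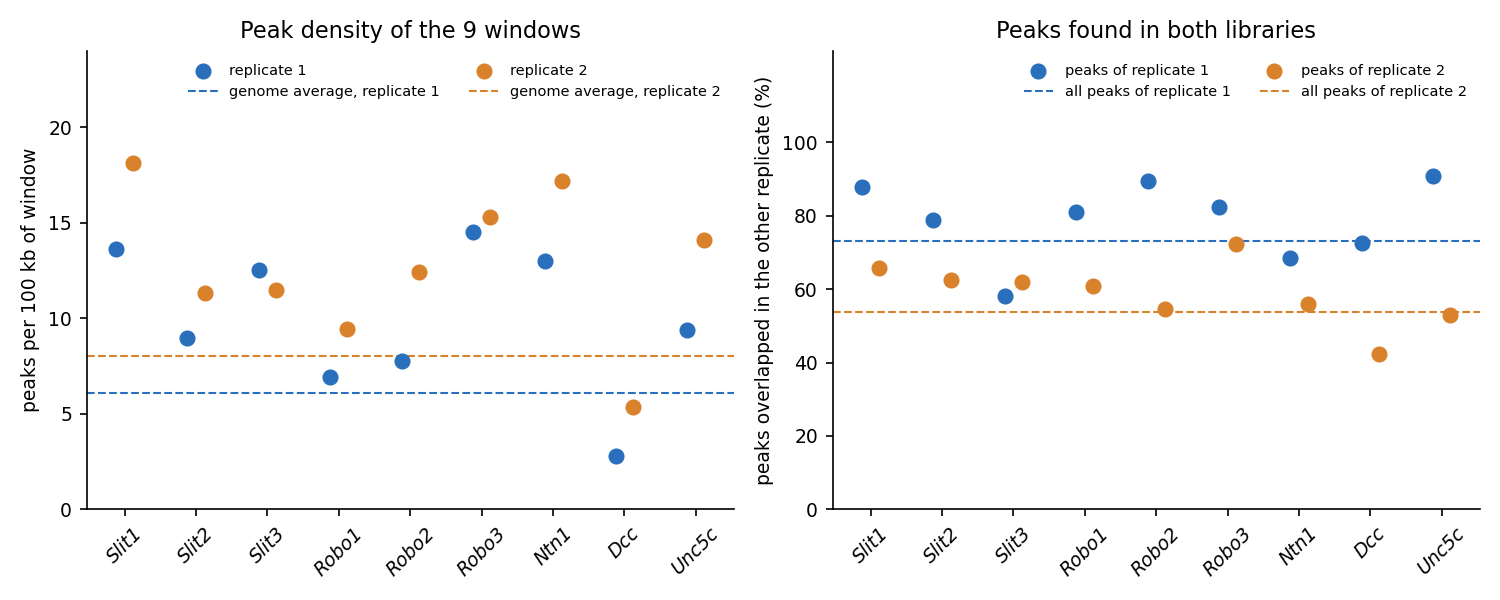
Left, peaks per 100 kb of each window in replicate 1 (blue) and replicate 2 (orange), with the genome averages of 6.06 and 8.04 as dashed lines; right, the percentage of the peaks of each library overlapped by at least 1 bp in the other, with the values over all peaks, 73.2% and 53.9%, as dashed lines. Dcc is the one member under both averages on the left, and Slit3 is the one whose blue point is above its orange point on the left and below it on the right.

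The 395 and 525 peaks gave a mean of 460.0 ± 91.9 (SD, n = 2). Most were intronic, 298 in replicate 1 and 405 in replicate 2, and 18 and 27 were exonic, 30 and 43 intergenic and 49 and 50 at promoters. Distal peaks made up 87.6% and 90.5%. Over all nuclear peaks, 34.2% and 36.4% were intronic, 5.03% and 4.70% exonic, 33.2% and 34.8% intergenic and 27.6% and 24.1% at promoters. Gene bodies made up 3.99 of the 4.89 Mb of the windows, and the part of this in the class counts was not tested. Of the replicate 1 peaks 303, or 76.7% (exact Clopper-Pearson 95% interval 72.2% to 80.8%), were overlapped in replicate 2, against 73.2% of all peaks. Of the replicate 2 peaks 301, or 57.3% (53.0% to 61.6%), were overlapped in replicate 1, against 53.9%. These intervals cover counting error only, and neighbouring peaks are not independent.

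A smaller share of these peaks than of all peaks reached the top 10% of scores. In replicate 1 it was 16 peaks, or 4.05%, against 9.94%, and in replicate 2 it was 26, or 4.95%, against 9.82%. The 2 sets differ in class, with promoter peaks 49 of 395 and 50 of 525 here and 27.6% and 24.1% of all peaks. Over the genome, promoter peaks had median ranks of 71.0 and 71.5 and distal peaks 43.2 and 44.4. The part of this mix in the smaller share was not tested. Every peak of the windows in the top 10% was overlapped in the other library, and 15 were in the top 10% in both. The same shares over all peaks in the top 10% were not computed, so these counts have no background. Slit1 held 4 of the 15, Robo3 and Unc5c 3 each, and Robo1, Robo2, Slit2, Dcc and Ntn1 1 each. Slit3 held none, as its strongest peak reached 88.5 in replicate 1. Peaks found in 1 library alone were weaker, with median ranks of 26.2 and 35.6 against 57.9 and 70.1 for shared ones. The strongest unshared peak lay at the start of Slit2 in replicate 1, with a rank of 84.9, and at that of Robo2 in replicate 2, with 85.5. The same split held over all peaks of the genome, with median ranks of 17.4 and 27.6 for unshared and 61.7 and 71.5 for shared peaks. Among the 303 shared peaks, ranks in the libraries had a Spearman correlation of 0.905, against 0.930 over all 120726 shared peaks. Both ranks come from the same stretch of genome, so this describes how alike the libraries are.

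**Figure D4:**
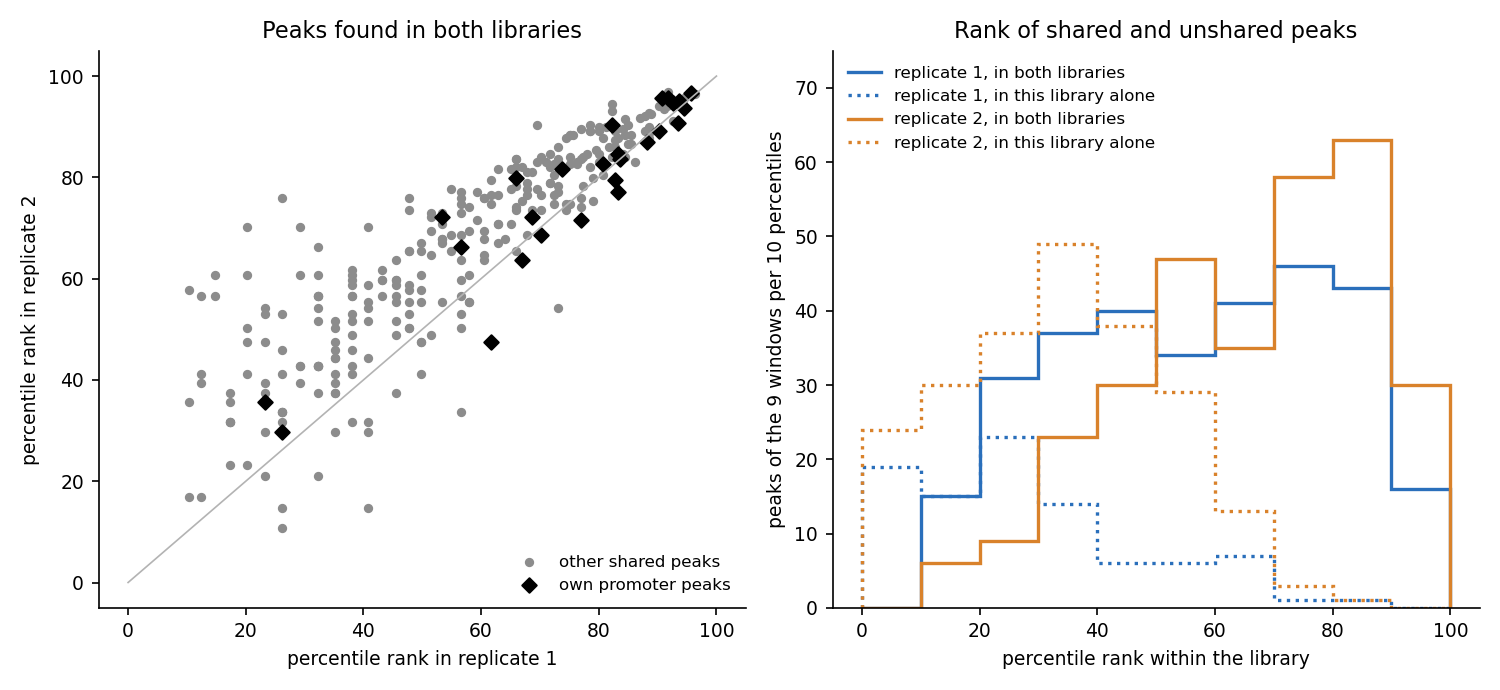
Left, the percentile rank of each shared peak of the 9 windows in replicate 1 against its rank in replicate 2, with own promoter peaks as black diamonds and the line of equal rank; right, the number of peaks per 10 percentiles of rank, for peaks found in both libraries (solid) and in 1 alone (dotted). Ranks scatter most at the low end, and no unshared peak lies above a rank of 85.5.

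Distal peaks of the windows ranked a little above distal peaks elsewhere, with medians of 47.7 and 50.3 against 43.2 and 44.4. Their promoter peaks, those of neighbours included, had medians of 66.0 and 71.2 against 71.0 and 71.5. Hotspots covered 2.41% of the windows in replicate 1 and 3.72% in replicate 2, a mean of 3.07 ± 0.928% (SD, n = 2), against 2.01% and 2.98% of the genome. The cover was lowest at Dcc, with 0.699% and 1.71%, and highest at Robo3, with 5.36% and 7.02%. Of the 364 and 463 hotspots, 30.5% and 33.3% were at the ceiling of the deposited −log10 false discovery rate, 100, against 34.4% and 38.0% of all hotspots.

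The homeodomain word TAATTA, the core bound by many retinal transcription factors, was more frequent in the distal peaks of the windows than in distal peaks at large. It was present in 31 of 346, or 8.96%, in replicate 1 and in 56 of 475, or 11.8%, in replicate 2, against 5.77% and 7.17% of all distal peaks. The word ATTGATT, which Onecut factors bind, was present in 4.34% and 5.05% against 2.24% and 2.75%. Median GC content differed little, at 48.0% and 47.3% in the windows against 49.3% and 48.7%, and the part of base composition in these shares was not tested. The word CCANNAGGG, part of the CTCF core, was less frequent, though by little in replicate 2, at 3.47% and 5.05% against 6.13% and 5.64%. The E-box, at 13.6% and 15.6% against 14.7% and 15.2%, and the Sox word, at 12.1% and 17.3% against 14.7% and 14.9%, lay on different sides of the background in the 2 libraries. Of the other words, the GC box did the same, at 5.49% and 3.16% against 5.28% and 4.95%. The POU octamer ATTTGCAT was present in 0.578% and 0.421%, which is 2 peaks in each library, against 0.954% and 0.933%. The Ebf word CCCNNGGGA was present in 5.20% and 4.84%, against 3.81% and 4.28%. The Zic word had shares of 9.25% and 10.7%, against 9.21% and 8.88%, and the AP-1 word 6.94% and 6.11%, against 4.88% and 5.26%. Both strands were searched and matches of different words may share bases.

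The members differed in which words their distal peaks held. The homeodomain word was present in 6 of 54 distal peaks of Robo1 in replicate 1 and in 18 of 75 in replicate 2, in 10 of 77 and 10 of 74 at Slit3, and in 5 of 31 and 6 of 62 at Dcc. At Robo2 it was present in 0 of 45 and 10 of 70, and at Robo3 in 0 of 14 and 0 of 15. The E-box was present in 12 of 30 and 14 of 39 distal peaks of Slit1, and in 5 of 77 and 8 of 74 of Slit3. Peaks of 1 gene share their neighbourhood and are not replicates, so these counts describe the loci and were not tested.

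**Figure D5:**
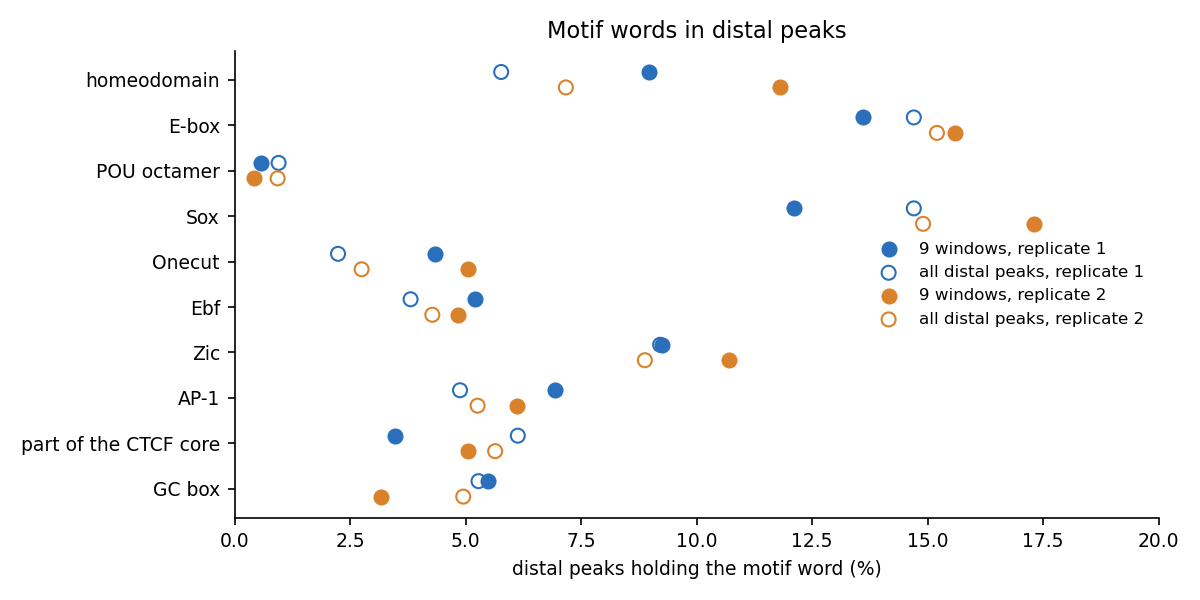
Percentage of distal peaks that hold each motif word (horizontal axis) for the 9 windows (filled) and for all distal peaks (open), in replicate 1 (blue) and replicate 2 (orange). The homeodomain, Onecut, Ebf, Zic and AP-1 words lie to the right of the background in both libraries, the Zic word by little in replicate 1. The CTCF word and the POU octamer lie to the left in both, the CTCF word by little in replicate 2.

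Other genes of the pathways were taken from a list of 44 receptors, ligands and effectors. Of these, 42 had a promoter peak in both libraries, against 68.8% of all protein-coding genes, and the endothelial receptor gene Robo4 and the ligand gene Ntn5 had none in either. The window was above the genome average in both libraries for 38 of 44, against 63.2% of all genes. Their promoter peaks had a median rank of 95.8 in replicate 1 and 96.6 in replicate 2, with 26 and 25 of 42 at or above the median of all genes. The netrin receptor gene Neo1, a relative of Dcc, ranked 98.3 and 96.8, and the Robo effector gene Srgap2 99.6 and 99.5. Among relatives of Unc5c, Unc5b ranked 97.9 and 97.8, Unc5a 93.6 and 89.1, and Unc5d 94.8 and 93.7, the last in a sparse window of 3.86 and 5.65 peaks per 100 kb.

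For each member the gene outside the list with the most similar density was found among genes whose window was within 20% of its length, from 2 densities each. Dcc was nearest to Agbl1, with 2.81 and 5.33 peaks per 100 kb, and Slit3 to Reln, with 12.9 in both libraries. Robo2 was nearest to Cacna2d1, with 7.41 and 12.6, and Robo1 to Cacna1c, with 6.77 and 9.02. Slit1 was nearest to Zbtb16, with 13.5 and 18.1, Slit2 to Ccbe1, with 8.95 and 11.5, and Ntn1 to Tmem163, with 13.3 and 17.1. Unc5c was nearest to Gm20696, with 9.23 and 14.1, and Robo3 to Relt, with 14.5 and 15.3. At the edges of the 9 windows, the outermost 10 kb inside held 5 and 9 peaks in all and the first 10 kb outside held 21 and 31.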

How the data were processed

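The data were DNase-seq peak and hotspot lists of 2 libraries of mouse retina at embryonic day 14.5, on mm10 per the labels. The deposited file lists derive each list from the alignments of 1 library. The aligner, caller and filters: not given in the sources used here. Each deposited peak has a score of whole-number value and unstated meaning, which was used as a percentile rank within its library. Of these scores, 12.1% in replicate 1 and 7.80% in replicate 2 were written in decimal form. The deposited hotspot value is a −log10 false discovery rate, with a lowest value of 1.30 and a ceiling of 100. Duplicate lines (34 and 56) were removed, and peaks outside the assembled nuclear chromosomes were left out. Depth is unknown, so no detection limit was computed.

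Genes and starts came from GENCODE M21, and sequences and the assembly (GRCm38.p6) from RefSeq, whose promoter table held starts of 6 of the 9 members and not those of Slit1, Dcc and Ntn1. A promoter was 1000 bp on either side of any annotated start, and distal peaks lay farther away. The exon and intron numbers refer to the protein-coding transcript of longest span. Named peaks were the strongest at a start and the shared distal ones whose lower rank of the 2 libraries was highest. Peaks of the libraries that shared 1 bp or more were counted as overlapping. With 1 group there was no contrast to test, and all protein-coding genes or all peaks served as the background. The members, lists, motifs and rules were chosen with earlier results of these data known. The alternatives tried were other flanks, promoter widths, score and overlap limits, each library alone and, added after the data were seen, the removal of scores in decimal form. Interval counting was tested on simulated data. The analysis used Python 3.11.15, pandas 2.3.3, scipy 1.17.1 and samtools 1.23.1.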

Additional observations from a re-analysis of the deposited data

How the results depend on the processing

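The count of members with a window above the genome average was 8 under every flank tried, with distal peaks alone, without scores in decimal form and in each library alone, and 6 when peaks above the median score or an equal number of the strongest peaks were used, which left out Robo1 and Robo2. The 9 members with a promoter peak became 8 when the 5′ end of the gene record alone was used, which left out Robo1, and stayed at 9 under the other alternatives. The mean of 460.0 peaks became 232.5 with peaks above the median score and 193 with an equal number from each library, since fewer peaks were entered, and ranged from 395 to 525 with a library left out. The 76.7% of replicate 1 peaks found in replicate 2 became 90.3% above the median score, 86.2% with equal numbers, 65.6% with an overlap of at least 75 bp and 57.3% in the reverse direction, for which the cause was not tested beyond the change of peaks entered. The hotspot cover stayed within 1 SD under the alternatives run, and was 2.41% and 3.72% with a library left out. The fold of each member over the genome average moved by more than 1 SD over the 2 libraries in 41 of 63 cases. It moved by over 1.5 times at Robo3 (2.15 to 4.12 without flanks, 3.75 above the median score and 3.98 with equal numbers), Slit1 (2.24 to 3.75 and 3.71 under the last 2) and Dcc (0.560 to 0.344 and 0.363), and crossed 1 at Robo1 (0.958) and Robo2 (0.944) with equal numbers. No paired analysis was possible because the libraries form 1 group. Unknown depth limits every statement that a peak is missing from 1 library.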

Other observations

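Robo2 has 2 further starts in RefSeq, 681 kb and 1040 kb upstream of the GENCODE 5′ end and outside the window, which were looked at after the data were seen. Both were open in both libraries, with ranks of 62.9 and 74.8 at chr16:75092770 and of 68.6 and 67.1 at chr16:75447293, below the ranks of 93.4 and 90.8 at the GENCODE 5′ end. The 985 kb between the window and the outermost start held 54 peaks in replicate 1 and 89 in replicate 2, or 5.48 and 9.03 per 100 kb. Robo1 and Robo2 are neighbours, and the 746 kb between their windows held 23 and 33 peaks, or 3.08 and 4.43 per 100 kb, under the genome averages of 6.06 and 8.04.

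The netrin gene Ntn4, from the list of other pathway genes, was singled out after its values were seen. Its window held 16 peaks in replicate 1 and 84 in replicate 2, a ratio of 5.25, which was the third highest of the 13984 protein-coding genes whose window held at least 10 peaks in replicate 1. In each library 12 of them were overlapped in the other. The median rank was 65.0 in replicate 1 and 0.506 in replicate 2, so most of the added peaks had scores at the bottom of that library. Only 12 of the 84 lay in the gene body. Hotspots covered 2.64% and 13.0% of the window.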
